A study of Mus musculus with 10 samples.

Results

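Expression of the genes of serine, glycine and threonine metabolism was followed through the reprogramming of mouse fibroblasts toward pluripotency. The set holds 10 genes of 45706 in the deposited tables, taken from a list of symbols: Tdh, Gcat, Gldc, Phgdh, Psat1, Psph, Shmt1, Shmt2, Mthfd2 and Mthfd1l. Each symbol matched a single gene, and all 10 passed the filter on low counts. RNA was sequenced from 5 groups with 2 libraries each, which the series' design text calls biological replicates. Mouse embryonic fibroblasts (MEFs) were the uninduced cells, unsorted and kept in MEF medium without doxycycline. They carried OKSM, a polycistronic cassette of the reprogramming factors Oct4, Klf4, Sox2 and Myc, in the Col1a1 locus and the doxycycline-dependent activator M2rtTA in the ROSA26 locus, on a C57BL/6 x 129 background. Cells of the same genotype were taken on day 3 as the whole culture, and on day 6 and day 9 after sorting for the surface antigen SSEA1. Their medium was ESC medium with doxycycline at 1 µg/ml and ascorbic acid at 50 µg/ml. The reference was the embryonic stem cell (ESC) line V6.5, of the same strain label and with V6.5 as its genotype label, unsorted, in ESC medium on irradiated feeder cells. ESC medium contains non-essential amino acids, a supplement that includes serine and glycine, whereas the composition of the MEF medium is not given. All libraries carry a single batch label.

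Cells make serine from a glycolytic intermediate through PHGDH, PSAT1 and PSPH, and the serine hydroxymethyltransferases SHMT1 (cytosol) and SHMT2 (mitochondria) split it into glycine and a folate-bound carbon unit. In mitochondria MTHFD2 and MTHFD1L carry that unit on to formate for purine and thymidylate synthesis. Threonine is a separate source in the mouse: TDH oxidizes it, and GCAT splits the product into glycine and acetyl-CoA. The glycine cleavage system, of which GLDC is the decarboxylating subunit, passes a carbon of glycine to folate. Mouse embryonic stem cells are known for high TDH and for their need of threonine.

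Libraries held 29585876 to 38275024 estimated reads. The labelled cell types were checked on marker genes. All 12 fibroblast markers were at 1 CPM (counts scaled to library size) or more in MEFs, where they summed to 50220 to 51700 CPM per library, and all 10 pluripotency markers were at 1 CPM or more in ESCs, where they summed to 4269 to 4357 CPM against 2.03 to 2.53 CPM in MEFs. On day 9 the fibroblast markers summed to 126.6 to 135.2 CPM and the pluripotency markers to 474 to 477.1 CPM. The ESC libraries also held fibroblast RNA: 11 of the 12 fibroblast markers were at 1 CPM or more there, the other being Lum at 0.355 CPM, and the 12 lay at 1.11% to 14.0% of their MEF level. The MEF libraries stood apart from the induced ones in sex-linked genes, with Ddx3y at 90.58 and 86.43 CPM in MEFs and at most 0.176 CPM in each induced library, and Xist at 0.739 and 0.793 CPM against at least 929.6 CPM. In ESCs Ddx3y was at 26.13 and 26.81 CPM and Xist at 11.31 and 8.999 CPM. By these genes the MEF libraries came from male cells and the induced ones from female cells. Day 3 against MEF therefore also compares cells of different embryos. Sex, embryo, medium and ascorbic acid all change between MEFs and day 3 together with induction, and their parts cannot be told apart. Sex-linked expression, the cell line, doxycycline, ascorbic acid, sorting and fibroblast RNA likewise all change between day 9 and ESC. Their parts cannot be told apart there. The fibroblast markers summed to 4495 to 4638 CPM in ESCs, against 126.6 to 135.2 CPM on day 9. From day 3 to day 6 the whole culture gives way to cells sorted for SSEA1, so time and sorting cannot be told apart at that step. The fibroblast markers summed to 4629 to 4669 CPM on day 3 and to 317.3 to 333.7 CPM on day 6. In bulk RNA, fewer cells of a type and less RNA per cell cannot be told apart either.

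A gene was called where the quasi-likelihood test of edgeR gave an adjusted p under 0.05 and the change was at least 2-fold, a log2 fold change of 1. Against MEFs, 5 of the 10 genes were lower on day 3 (Phgdh, Psat1, Psph, Shmt2 and Mthfd2) and 2 were higher (Tdh and Shmt1), where 14.5% of all 20165 genes tested were called lower and 14.6% higher. From day 3 to day 6 Tdh, Gcat, Gldc, Shmt1 and Mthfd2 rose, 5 of 10 against 9.26% of all genes. From day 6 to day 9 Gldc rose, 1 of 10 against 5.18%. ESCs were higher than day 9 cells in Psat1, Psph, Shmt2 and Mthfd2, 4 of 10 against 18.6%. The median log2 fold change of the 10 genes was -1.15 on day 3 against MEF, 0.77 on day 6 against day 3, 0.16 on day 9 against day 6 and 0.63 in ESC against day 9, beside medians over all genes of 0.08, 0.03, 0.00 and 0.01. Without the fold minimum 9 of the 10 genes passed on day 3 against MEF, 9 on day 6 against day 3, 6 on day 9 against day 6, 10 in ESC against day 9 and 9 in ESC against MEF, but so did 64.9%, 56.5%, 34.6%, 69.6% and 76.6% of all genes. Genes called lower made up 10.2% of all on day 6 against day 3, 2.68% on day 9 against day 6 and 14.3% in ESC against day 9. In each of these 3 comparisons edgeR called 0 of the 10 genes lower. DESeq2 and limma called 0 there as well. At an unadjusted p under 0.05 the lower genes numbered 0 on day 6, 1 on day 9 and 3 in ESC. The share of all genes at that threshold was not counted, so these numbers have no background beside them.

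**Figure D1:**
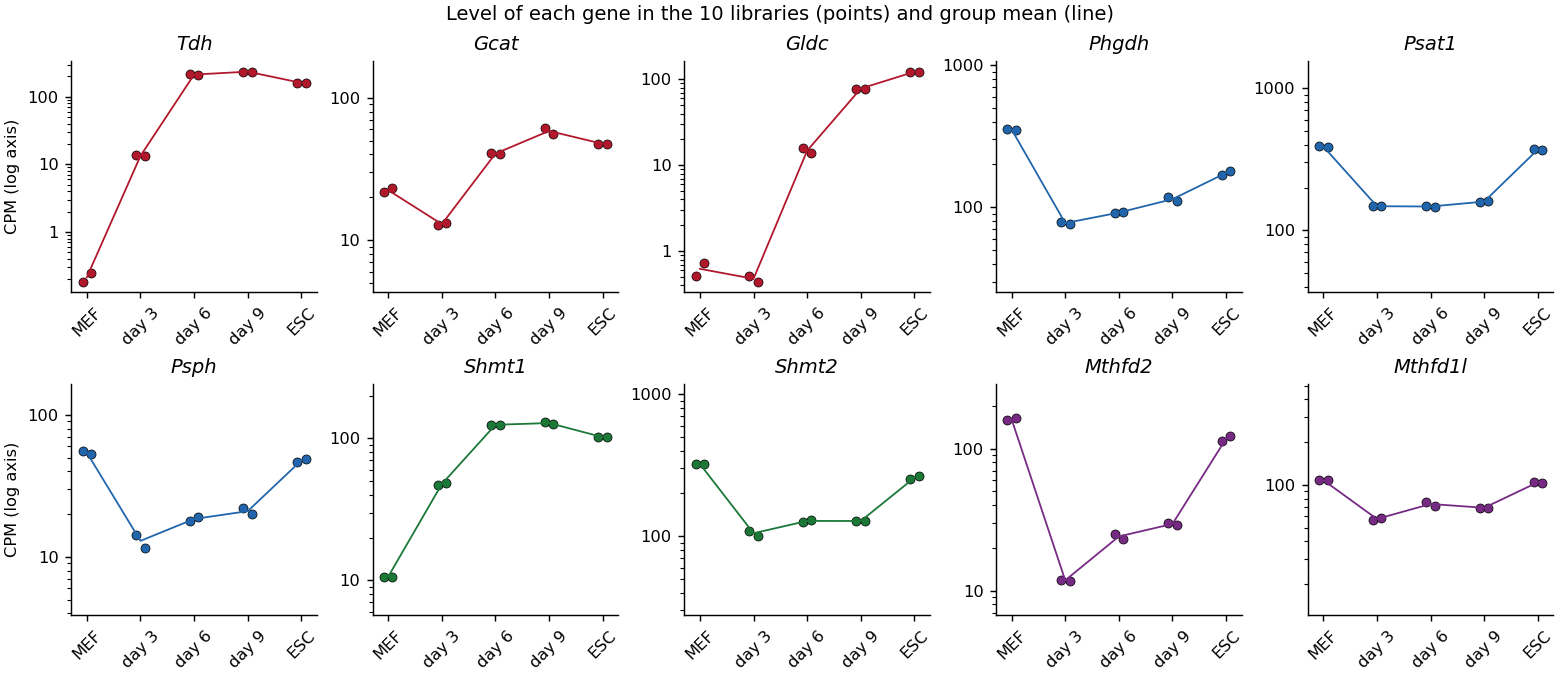
Level of the 10 genes in CPM (vertical log axis) in each of the 10 libraries (points) by group (horizontal axis), with the group means joined by a line. Tdh, Gldc and Shmt1 end far above their MEF level, whereas Phgdh, Psat1, Psph, Shmt2 and Mthfd2 drop on day 3 and are higher again in ESC than on day 9.

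Tdh (ENSMUSG00000021953.12, chromosome 14, 63492347 to 63509092, minus strand, GRCm38), the threonine dehydrogenase, was nearly absent from MEFs. Its level was 0.185 and 0.244 CPM in the 2 MEF libraries, 13.6 and 13.1 on day 3, 214.7 and 211.4 on day 6, 234.4 and 235.8 on day 9, and 160.3 and 160.6 in ESCs. The MEF values rest on 5 and 8 reads. No groups overlapped, and both day 9 libraries lay above both ESC libraries. The log2 fold change was 5.92 (SE 0.14, edgeR adjusted p 5.3e-14) on day 3 against MEF and 3.99 (SE 0.04, edgeR adjusted p 6e-17) on day 6 against day 3. Thus Tdh stood at 8.32% of its ESC level on day 3 and at 132.8% by day 6. ESC differed from day 9 by a log2 fold change of -0.55 (edgeR adjusted p 1.2e-09), under the 2-fold minimum. For comparison, the median of the 10 pluripotency markers was 4.46% of the ESC level on day 6 and 15.1% on day 9.

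Gcat (ENSMUSG00000006378.11, chromosome 15, 79030874 to 79038353, plus strand), which completes threonine breakdown, did not rise with Tdh on day 3. It was at 21.8 and 23.1 CPM in MEFs, 12.7 and 13.2 on day 3, 41.1 and 40.05 on day 6, 61.6 and 55.5 on day 9, and 47.7 and 47.3 in ESCs. Day 3 libraries were the lowest of all and day 9 libraries the highest. The drop on day 3 measured -0.80 on the log2 scale (SE 0.07, edgeR adjusted p 1.4e-07), under the 2-fold minimum, and day 6 was above day 3 by 1.65 (SE 0.06, edgeR adjusted p 3.2e-11).

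Gldc (ENSMUSG00000024827.9, chromosome 19, 30098447 to 30175429, minus strand), the glycine-decarboxylating subunit of the glycine cleavage system, came on later and kept rising. Its level was 0.517 and 0.732 CPM in MEFs, 0.511 and 0.443 on day 3, 15.8 and 13.8 on day 6, 78.1 and 78.2 on day 9, and 121.6 and 123.1 in ESCs. The difference between MEF and day 3 libraries, at 14 to 24 reads each, did not pass the test (edgeR adjusted p 0.3), and every later group lay above the one before it. The log2 fold change was 4.94 (SE 0.14, edgeR adjusted p 9.8e-13) on day 6 and 2.40 (SE 0.06, edgeR adjusted p 2.4e-12) on day 9. Gldc had reached 12.1% of its ESC level on day 6 and 63.9% on day 9.

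Epithelial markers were followed beside the rises of Tdh, Gcat and Gldc. Their sum rose on day 6 and day 9. On day 3, when Tdh rose, the range of the sum overlapped that of MEFs, but single markers moved both ways. Called higher were 2 of the 10, Cdh1 (0.37 CPM in MEFs, 9.49 on day 3) and Epcam (0.196 and 0.593 CPM). Krt14, Cldn7 and Krt18 were called lower, 3 of the 10. Of all genes, 14.6% were called higher and 14.5% lower at that step. Summed over 10 genes the epithelial markers stood at 15.7 to 18.81 CPM in MEFs, 15.34 to 17.23 on day 3, 243.8 to 248.5 on day 6, 1333 to 1388 on day 9 and 564.1 to 567.9 in ESCs. Of the 10, 8 rose on day 6 and 10 on day 9, beside 9.26% and 5.18% of all genes. In ESC against day 9, 7 were lower, beside 14.3% of all genes. Markers of endoderm and trophoblast, 6 genes, summed to 5.321 to 6.775 CPM on day 6, 10.66 to 10.77 on day 9 and 11.22 to 12.58 in ESCs, with Sox17 and Cdx2 under 0.05 CPM on both days and Elf5 at 8.82 CPM on day 9. The part of such cells in the rises was not tested.

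The other subunits of the glycine cleavage system did not move alike. Amt, the aminomethyltransferase that hands the carbon to folate, went from 2.81 CPM in MEFs and 3.61 on day 3 to 10.5 on day 6, 38.1 on day 9 and 85.2 in ESCs, with log2 fold changes of 1.54, 1.86 and 1.16 at the last 3 steps (edgeR adjusted p 1.8e-09, 3.3e-11 and 3.3e-11). Gcsh, the lipoyl carrier subunit, ranged between 42.9 CPM on day 3 and 99.6 CPM in ESCs and was called in none of the 5 comparisons. Dld, the dihydrolipoamide dehydrogenase shared with pyruvate dehydrogenase and other complexes, lay between 84.7 and 106.2 CPM in all groups and was not called either. Both were tested with edgeR, which gave Gcsh an adjusted p of 3.2e-06 for day 3 against MEF at a log2 fold change of -0.44.

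The 3 genes of serine synthesis all fell on day 3. Phgdh (ENSMUSG00000053398.9, chromosome 3, 98313170 to 98339990, minus strand), the first and committed enzyme of the pathway, was at 356.9 and 348.6 CPM in MEFs, 79.0 and 75.6 on day 3, 91.2 and 92.1 on day 6, 118.1 and 109.8 on day 9, and 169.2 and 179.6 in ESCs. Its MEF libraries were the highest and its day 3 libraries the lowest, and each later group lay above the one before without overlap. The log2 fold change on day 3 was -2.19 (SE 0.04, edgeR adjusted p 9.2e-15). ESCs had 49.4% of the MEF level, or -1.02 on the log2 scale (SE 0.04, edgeR adjusted p 1.1e-11), at the 2-fold minimum. It was -0.68 under library-size scaling and -0.97 without the first ESC replicate, and then was not called.

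Psat1 (ENSMUSG00000024640.7, chromosome 19, 15904678 to 15947337, minus strand), the aminotransferase of the middle step, was at 389.9 and 387.9 CPM in MEFs and at 147.2 and 148.3 on day 3. It stayed at 147.7 and 146.2 CPM on day 6 and 157.4 and 161.1 on day 9, and was at 372.7 and 368.2 CPM in ESCs. Day 3 and day 6 libraries overlapped, and the ESC mean was 95.3% of the MEF mean. The log2 fold change was -1.40 (SE 0.03, edgeR adjusted p 2.5e-14) on day 3 and 1.22 (SE 0.03, edgeR adjusted p 1e-13) in ESC against day 9.

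Psph (ENSMUSG00000029446.12, chromosome 5, 129765558 to 129787449, minus strand), the phosphatase that releases serine, was at 55.2 and 53.1 CPM in MEFs, 14.35 and 11.6 on day 3, 17.8 and 19.2 on day 6, 22.05 and 19.9 on day 9, and 46.8 and 48.7 in ESCs. It followed the same shape, with the 6 induced libraries all below the 4 others. On the log2 scale it changed by -2.06 (SE 0.08, edgeR adjusted p 2e-11) on day 3 and 1.19 (SE 0.08, edgeR adjusted p 4.6e-09) in ESC against day 9. In TPM, a level adjusted for transcript length, the 3 serine synthesis genes together summed to 389.8 and 380 in MEFs, 101.7 and 107.2 on day 3, 120.2 and 121.7 on day 6, 136.9 and 126.4 on day 9, and 301.3 and 285 in ESCs. The fibroblast markers fell over the same step: on day 3 all 12 were still at 1 CPM or more, at a median of 10.1% (0.352% to 56.6%) of their MEF level and a sum of 4629 to 4669 CPM. At that time Phgdh stood at 21.9%, Psat1 at 38.0%, Psph at 23.9%, Shmt2 at 32.5% and Mthfd2 at 7.34% of MEF, and the part of the loss of fibroblast RNA in these falls was not tested. The marker sum was 317.3 to 333.7 CPM on day 6 and 126.6 to 135.2 CPM on day 9, both in cells sorted for SSEA1, whereas day 3 was the whole culture.

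**Figure D2:**
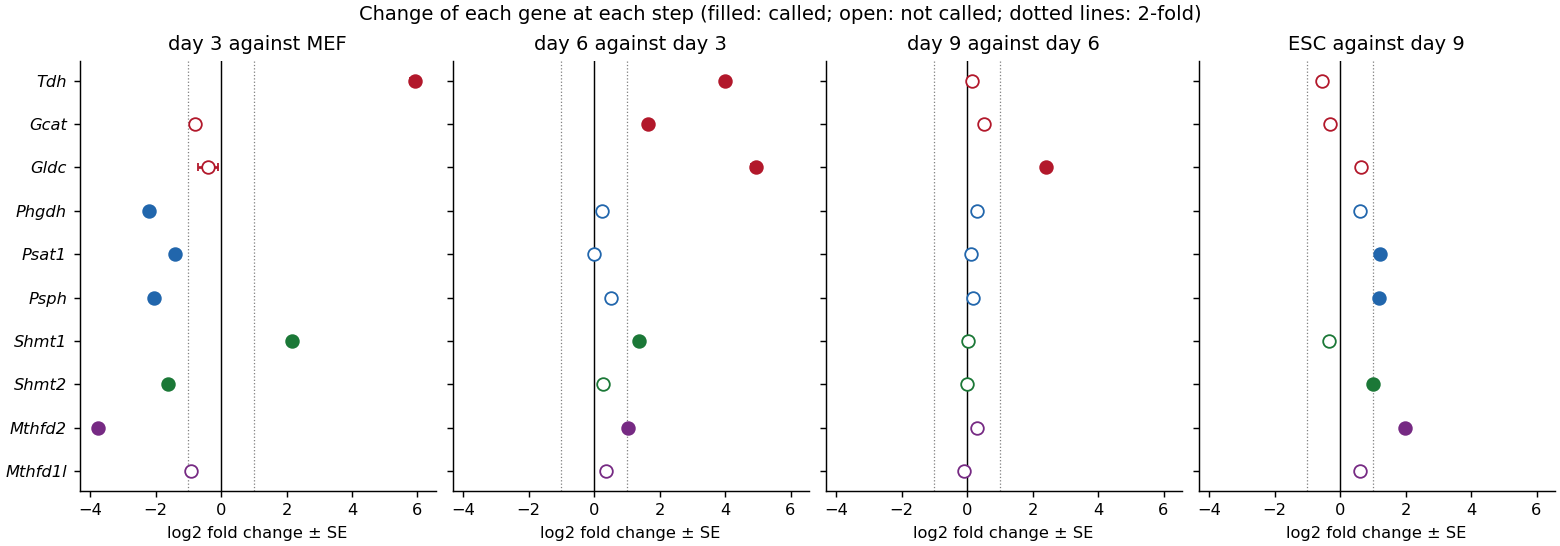
Log2 fold change (horizontal axis, bars are standard errors) of each gene (vertical axis) at the 4 successive comparisons, with filled points for called genes and dotted lines at a 2-fold change. On day 3 the serine synthesis genes, Shmt2 and Mthfd2 lie left of the lower line while Tdh and Shmt1 lie right of the upper one, and in ESC against day 9 the filled points are Psat1, Psph, Shmt2 and Mthfd2.

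The serine hydroxymethyltransferases moved in opposite directions from MEFs to day 3. Shmt1 (ENSMUSG00000020534.12, chromosome 11, 60788104 to 60811718, minus strand), the cytosolic enzyme, was at 10.6 and 10.6 CPM in MEFs, 46.7 and 48.7 on day 3, 124.2 and 125 on day 6, 129.3 and 127 on day 9, and 101.9 and 102 in ESCs. Shmt2 (ENSMUSG00000025403.4, chromosome 10, 127517123 to 127522444, minus strand), the mitochondrial enzyme, was at 320.4 and 323.9 CPM in MEFs, 108.9 and 100.7 on day 3, 126.1 and 129.8 on day 6, 127.3 and 128.3 on day 9, and 251 and 264.3 in ESCs. Thus all induced and ESC libraries lay above MEFs for Shmt1 and below them for Shmt2. On day 3 the log2 fold change was 2.17 (SE 0.05, edgeR adjusted p 6.1e-14) for Shmt1 and -1.62 (SE 0.04, edgeR adjusted p 1.2e-13) for Shmt2. Shmt1 rose again on day 6, by 1.39 (SE 0.04, edgeR adjusted p 5.8e-13). Shmt2 was higher in ESC than on day 9 by 1.01 (SE 0.04, edgeR adjusted p 2e-11), and by 0.97 without the second ESC replicate, which is under the minimum.

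On TPM, which allows levels of different genes to be compared, the ratio of Shmt1 to Shmt2 was 0.118 and 0.0983 in MEFs, 1.33 and 1.36 on day 3, 3.06 and 2.94 on day 6, 3.17 and 2.80 on day 9, and 1.20 and 1.11 in ESCs. Which enzyme had more RNA depended on the transcripts counted. Between 36.1% and 50.2% of the Shmt1 reads in a library were assigned to transcripts annotated as protein-coding, and the rest to shorter retained-intron, processed or decay transcripts, whereas Shmt2 has a single annotated coding transcript that took all its reads. With coding transcripts alone the ratio was 0.0164 and 0.0136 in MEFs, 0.199 and 0.2 on day 3, 0.397 and 0.419 on day 6, 0.342 and 0.39 on day 9, and 0.206 and 0.194 in ESCs, under 1 throughout. By either count MEF libraries had the lowest ratio and day 6 and day 9 libraries the highest.

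**Figure D3:**
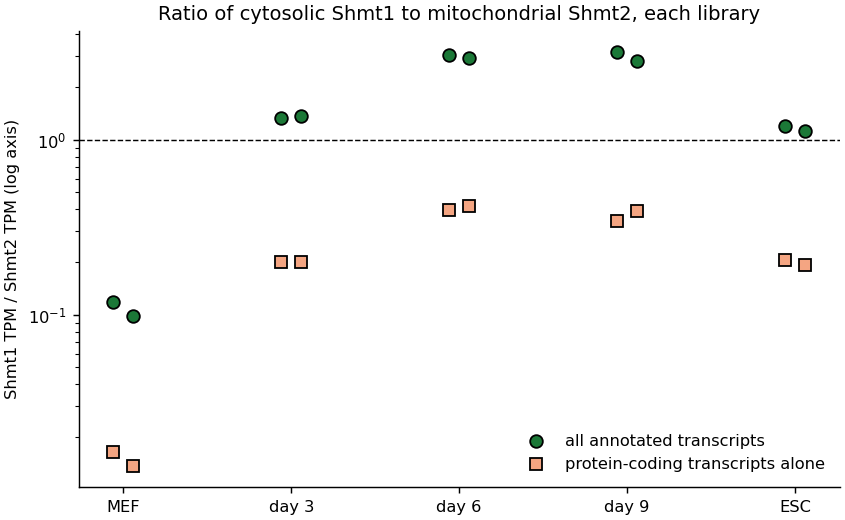
Ratio of Shmt1 TPM to Shmt2 TPM (vertical log axis) in each library by group (horizontal axis), from all annotated transcripts (circles) and from protein-coding transcripts alone (squares), with a dashed line at a ratio of 1. The circles go from about 0.108 in MEF to 3.00 on day 6, and the squares stay below the line in all 10 libraries.

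Promoter sequence is shown for Gldc and Shmt2 because Gldc rose from day 3 to day 9 and Shmt2 fell on day 3, and because their upstream windows hold 0 bases of annotated exon. RefSeq's table (GRCm38.p6) held a promoter for 9 of the 10 genes. The 250 bases before the start site are given 5′ to 3′ on the gene's strand, with CCGCCC and its complement GGGCGG, a box bound by Sp and Klf factors, in capitals.
Gldc, chr19:30175442-30175691, minus strand: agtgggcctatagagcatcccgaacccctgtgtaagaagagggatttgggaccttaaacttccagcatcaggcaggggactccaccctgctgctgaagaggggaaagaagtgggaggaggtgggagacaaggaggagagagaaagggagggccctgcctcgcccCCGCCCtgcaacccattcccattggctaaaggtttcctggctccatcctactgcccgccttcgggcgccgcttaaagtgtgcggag
Shmt2, chr10:127522445-127522694, minus strand: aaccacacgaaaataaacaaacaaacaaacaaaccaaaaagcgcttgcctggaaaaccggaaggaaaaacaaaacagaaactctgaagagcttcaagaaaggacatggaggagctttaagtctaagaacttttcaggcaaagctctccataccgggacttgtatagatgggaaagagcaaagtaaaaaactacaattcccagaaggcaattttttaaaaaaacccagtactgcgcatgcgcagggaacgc
Gldc has 1 such box, 86 bases before its start, and Shmt2 has 0. Over windows of 300 bases (250 before to 50 after the start, both strands) the box was present in 6 of the 9 genes and in 35.7% of all 32851 promoters. TGATGNAA, the core of the element read by ATF4, was present in 0 of the 9 and in 3.97% of all promoters. CACGTG, the E-box, was present in 1 of the 9 (Gcat) and in 7.15% of all, and CCACACCC, a Klf-type box, in 0 of the 9 and in 3.56%. These are matches of letters in a short window, not measured binding.

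Mthfd2 had the deepest fall. Mthfd2 (ENSMUSG00000005667.6, chromosome 6, 83305691 to 83325908, minus strand), the mitochondrial folate dehydrogenase and cyclohydrolase, was at 159 and 163 CPM in MEFs, 11.9 and 11.7 on day 3, 25.1 and 23 on day 6, 29.9 and 29.1 on day 9, and 113.2 and 121.9 in ESCs. No groups overlapped. The log2 fold change on day 3 was -3.77 (SE 0.06, edgeR adjusted p 6.1e-16), to 7.34% of the MEF level, and day 6 was above day 3 by 1.03 (SE 0.07, edgeR adjusted p 9e-09). That second value lies at the 2-fold minimum: DESeq2 gave 0.999, and it was 0.95 without the first day 6 replicate, both under it. ESC was above day 9 by 2.00 (SE 0.05, edgeR adjusted p 1.4e-13).

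Mthfd1l (ENSMUSG00000040675.15, chromosome 10, 3973118 to 4167081, plus strand), which releases formate from mitochondrial folate, had the smallest range of group means among the 10 genes as a ratio of highest to lowest. It was at 108.6 and 107.4 CPM in MEFs, 57 and 58.1 on day 3, 75.5 and 71.2 on day 6, 69.1 and 68.8 on day 9, and 104.7 and 103.9 in ESCs. Its day 3 libraries were the lowest and its ESC libraries lay just under those of MEFs. On day 3 it changed by -0.91 on the log2 scale (SE 0.04, edgeR adjusted p 4.5e-11) was under the 2-fold minimum, and DESeq2, which gave -1.03, called it.

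The rest of the folate cycle was followed as a list of 16 genes, with a median log2 fold change of -0.07 on day 3 against MEF. Of the 16, 3 were higher and 4 lower at that step, beside 14.6% and 14.5% of all genes. The lower ones include both formyl-folate dehydrogenases, Aldh1l2 (mitochondrial; 279.4 CPM in MEFs, 7.95 on day 3, log2 fold change -5.14, edgeR adjusted p 6.3e-18) and Aldh1l1 (cytosolic; 17.4 and 0.564 CPM, -4.94, edgeR adjusted p 6.4e-12), and Slc25a32, the mitochondrial folate carrier (-1.10). Mthfd1, the cytosolic enzyme that joins the activities held by Mthfd2 and Mthfd1l in mitochondria, went the other way. It was at 48.5 CPM in MEFs, 102 on day 3, 398.8 on day 6, 548.1 on day 9 and 301.5 in ESCs, with log2 fold changes of 1.07 on day 3 and 1.97 on day 6 (edgeR adjusted p 2.4e-12 and 3.5e-15). The ratio of Mthfd1 to Mthfd1l in TPM was 0.379 and 0.390 in MEFs, 4.75 and 4.73 on day 6, 6.08 and 7.34 on day 9, and 2.72 and 2.32 in ESCs.

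Mthfd2l, a paralog of Mthfd2, was lower in ESC than on day 9, at 3.28 against 29.7 CPM (log2 fold change -3.17, edgeR adjusted p 2e-13). The ratio of Mthfd2 to Mthfd2l in TPM was 11.9 and 10.5 in MEFs, 0.485 and 0.737 on day 3, 0.903 and 0.92 on day 6, 1.35 and 0.875 on day 9, and 46.9 and 31.9 in ESCs. By this count the 6 induced libraries lay near or under a ratio of 1, and the MEF and ESC libraries far above it. Short processed transcripts weigh heavily in the Mthfd2 TPM. Its coding transcript held between 38.7% (first day 9 library) and 70.3% (first day 3 library) of the gene's TPM. The ratio from coding transcripts alone was not computed, so its place against 1 is not known. Folr1, a folate receptor, was higher on day 6 than on day 3 (2.54) and in ESC than on day 9 (1.71), reaching 48.8 CPM in ESCs from 2.16 CPM in MEFs. Ggh, which trims folate polyglutamates, fell on day 6 (-1.19). Against MEFs, ESCs were higher in Folr1 (4.49) and lower in Aldh1l2 (-4.20).

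Against MEFs, ESCs were higher in Tdh, Gldc, Shmt1 and Gcat, 4 of 10 where 25.5% of all genes were called higher, with log2 fold changes of 9.51, 7.58, 3.26 and 1.08 (edgeR adjusted p 3.7e-18, 1.2e-16, 3.1e-16 and 4.9e-10). Phgdh was the only gene called lower, 1 of 10 against 20.6%. The 5 not called were Psat1 (-0.07), Psph (-0.18), Shmt2 (-0.32), Mthfd2 (-0.45) and Mthfd1l (-0.05). This comparison shares its MEF and ESC libraries with those described above. The 6 genes that were below MEF on day 3 in serine synthesis and mitochondrial folate stood in ESCs at 49.4% (Phgdh), 73.0% (Mthfd2), 79.98% (Shmt2), 88.2% (Psph), 95.3% (Psat1) and 96.5% (Mthfd1l) of their MEF level. The fibroblast markers in the same libraries were at 1.11% to 14.0%, with a median of 8.62%. The markers were picked as fibroblast genes and the 6 genes were not, so the percentages are not like for like. How far fibroblast RNA adds to the ESC values was not tested.

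**Figure D4:**
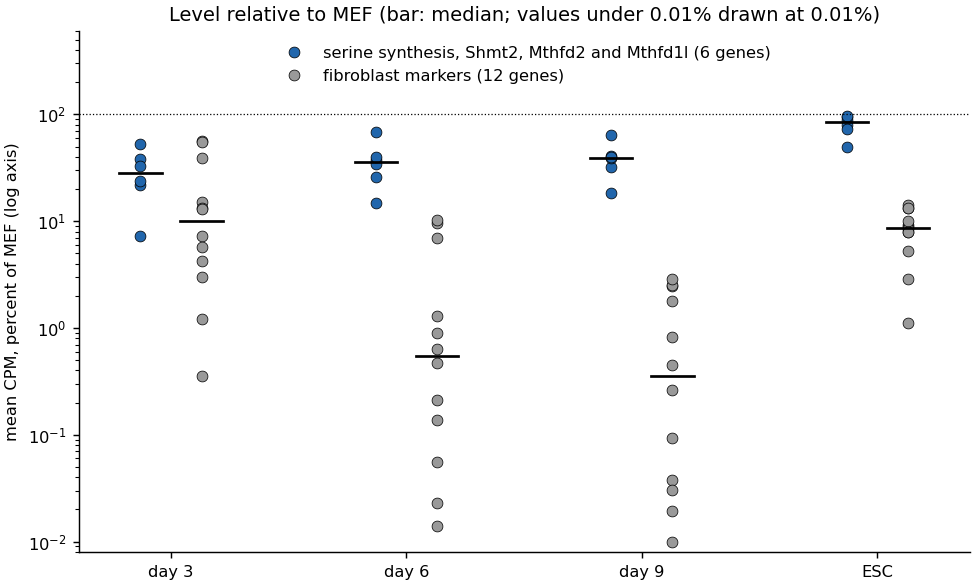
Group mean CPM as a percentage of the MEF mean (vertical log axis) at each later group (horizontal axis) for the 6 serine synthesis and mitochondrial folate genes (blue) and the 12 fibroblast markers (grey), 1 point per gene with a bar at the median. In ESC the blue points lie between 49.4% and 96.5% and the grey points between 1.11% and 14.0%.

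The amino acid response factor ATF4 is known to drive serine synthesis and mitochondrial folate genes, and a list of 12 genes of that response was followed beside them. On day 3 against MEF 9 of the 12 fell and 1 rose, where 14.5% of all genes were called lower and 14.6% higher, with a median log2 fold change of -2.08 against 0.08 for all genes. Atf4 itself fell from 402.3 to 139.9 CPM (log2 fold change -1.52, edgeR adjusted p 4e-14), the asparagine synthetase Asns from 288.6 to 63.1 CPM (-2.19, edgeR adjusted p 7.3e-16) and the kinase-like regulator Trib3 from 136.2 to 0.904 CPM (-7.23, edgeR adjusted p 3.4e-17). Chac1, which degrades glutathione, fell by 4.72 on the log2 scale. The exception was the cystine carrier Slc7a11, at 14.7 CPM in MEFs, 87.1 on day 3, 282.4 on day 6 and 2.71 in ESCs. It rose again on day 6 (1.70) and fell on day 9 (-1.23). Nupr1, a stress-induced chromatin protein, fell on day 6 (-2.77), and Trib3 rose on day 9 (1.15). Against MEFs, 7 of the 12 were lower in ESCs, where 20.6% of all genes were, led by Atf5 (-3.36). In ESC against day 9, 6 of the 12 were higher and 1 lower, beside 18.6% and 14.3% of all genes: Chac1 (3.37), Nupr1 (3.28), Trib3 (2.08), Aars (1.77), Asns (1.65) and Ddit3 (1.45) were higher, and Slc7a11 (-5.47) lower. Atf4 (0.49), Atf5 (0.54), Gars (0.57), Sesn2 (-0.90) and Cebpg (-0.49) were not called there.

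**Figure D5:**
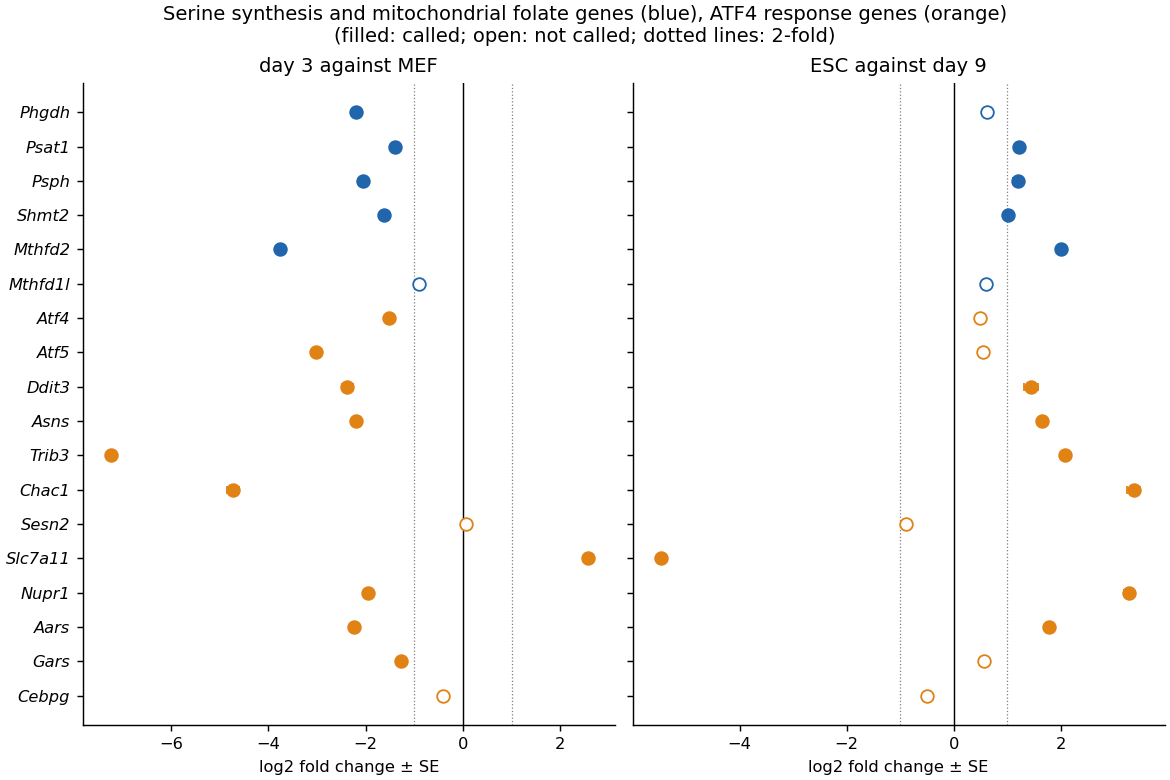
Log2 fold change (horizontal axis, bars are standard errors) of the 6 serine synthesis and mitochondrial folate genes (blue) and the 12 ATF4 response genes (orange), on day 3 against MEF (left) and in ESC against day 9 (right), with filled points for called genes. Of the orange genes 9 lie below the lower dotted line on the left, and 6 lie above the upper dotted line on the right.

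Carriers of these amino acids were counted as a list of 13 genes. On day 3 against MEF 4 fell, where 14.5% of all genes were called lower: Slc6a9, the glycine transporter (53.8 to 2.89 CPM, log2 fold change -4.22, and -2.46 in ESC against MEF), Slc7a5, which takes up large neutral amino acids (306.1 to 56.4 CPM, -2.44), Slc1a4, a serine and alanine carrier (138.7 to 48.5 CPM, -1.52), and Slc38a2 (373.8 to 167 CPM, -1.16). Slc1a5, a carrier of glutamine and other neutral amino acids, was at 43.7 CPM in MEFs and 124.3 CPM in ESCs (1.51). Sfxn1, the mitochondrial serine carrier, was at 66.4 CPM in MEFs, 142.2 on day 6 and 84.6 in ESCs, and was not called in any of the 5 comparisons. Slc38a4 fell on day 6 (-2.03) and was higher in ESC than on day 9 (2.93). Sfxn3, a relative of Sfxn1, was lower in ESC than on day 9 (-1.76).

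Ordered by mean CPM, the groups ran MEF, ESC, day 9, day 6, day 3 for Phgdh, Psph and Mthfd2, from high to low. Psat1 differed from that order only in having day 3 above day 6, and these did not differ (edgeR adjusted p 0.87). Shmt2 and Mthfd1l had day 6 above day 9, again without a difference (edgeR adjusted p 0.99 and 0.097). Other neighbours without a difference were MEF and ESC for Mthfd1l (edgeR adjusted p 0.23), day 9 and day 6 for Psph (0.13) and for Shmt1 (0.42), and MEF and day 3 for Gldc (0.3). Tdh and Shmt1 shared the order day 9, day 6, ESC, day 3, MEF. In TPM 7 of the 10 genes kept their order, the exceptions being Psat1, Shmt1 and Mthfd1l.

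The genes closest in pattern were sought among 9570 protein-coding genes by the root mean square difference of centred log2 CPM over the 10 libraries. For Phgdh these were Mvd (0.08) and Fam110b (0.12), for Psat1 Uba6 (0.08) and Gadd45a (0.09), and for Psph the aminoacyl-tRNA synthetase gene Cars (0.11) and the glycolytic enolase Eno1 (0.17). For Shmt2 they were the glycolytic mutase Pgam1 (0.07) and Mapk6 (0.10), for Mthfd2 the phosphofructokinase Pfkl (0.28) and Ak4 (0.37), and for Mthfd1l Ibtk (0.07) and the aminoacyl-tRNA synthetase gene Rars (0.09). Shmt1 was closest to Gprasp2 (0.14) and Ppp1r9a (0.14), Gcat to Jak3 (0.22) and Pvrl1 (0.23), and Gldc to B4galnt3 (0.31) and the aquaglyceroporin Aqp3 (0.35). For Tdh they were Urah (0.82) and Smagp (0.85), which both peaked on day 9. These differences grow with the spread of the gene itself, which was 3.75 for Tdh, 3.32 for Gldc, 1.43 for Mthfd2, 1.36 for Shmt1 and 0.353 to 0.809 for the others, so they do not rank the genes by closeness of match.

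Some values carry limits of annotation. Psph shares 10.4% of its exon bases with Cct6a on the opposite strand, Gcat 12.1% with Galr3 on the same strand, and Shmt1 4.7% with Smcr8 on the opposite strand, and whether counting used strand is not given in the sources used here. Short forms weigh on TPM, and so on the TPM sum of the serine synthesis genes. In the first MEF library Phgdh-002, of 446 bases, held 10.5% of the Phgdh reads and 49.3% of the Phgdh TPM. Psph-003 and Psph-008, not annotated as coding, held 30.7% and 29.6% of the Psph TPM there. Of the Psat1 reads 62.5% to 69% per library were on coding transcripts, with most of the rest on a retained-intron form. For Tdh 50.6% to 53.8% were on its coding transcripts on day 6, day 9 and in ESC, most of the others being on forms annotated for nonsense-mediated decay. The Myc gene, whose product is part of the cassette, was at 118.2 and 116.9 CPM in MEFs, 275.9 and 275.1 on day 3, 333.9 and 325.2 on day 6, 277.7 and 294.3 on day 9, and 18.97 and 18.4 in ESCs. Reads from the cassette's Myc and from the cell's own Myc gene were not told apart in these values. The part of Myc in the levels of the 10 genes was not tested.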

How the data were processed

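RNA-seq libraries were made with a stranded mRNA kit and read as single reads of 50 nt, per the labels' protocols. Per the submitters' processing notes, Salmon 0.8.2 and mm10 were used. The index, annotation release and options are not given in the sources used here. The authors deposited, per the file headers, for each of 109617 transcripts per library its estimated count (NumReads) and its TPM. The expected counts are not normalized, and TPM as deposited takes effective length and library total into account. Effective lengths were identical in all tables.

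Here expected counts were summed per gene by the identifier in the transcript name and rounded. Genes were kept with filterByExpr (minimum count 10, minimum total 15), 20165 in all. CPM is on the TMM scale. A model with 5 group means over the 10 libraries was tested by quasi-likelihood in edgeR 4.0.16, under R 4.3.3, so that groups of 2 share an estimate of spread. P-values were adjusted by Benjamini-Hochberg over all genes tested. Standard errors were derived from the fold change and its F statistic. Single values were not tested alone, since 2 libraries against 2 cannot give an exact two-sided permutation p below 0.333. The common biological coefficient of variation was 3.75%. Chi-square per degree of freedom between replicates was 2.78 to 5.05, so each library counts as 1 sample. Whether equal replicate numbers share a preparation is not stated, and p-values measure the spread between these libraries.

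The genes and lists were chosen with earlier results of these data known. Named beside the 10 genes were, per comparison, up to 4 called genes of the related lists with the largest rise and 4 with the largest fall at 5 CPM or more, and the 2 genes nearest in pattern to each (20 CPM or more in a group). Sfxn1, Slc25a32, Gcsh, Dld, Slc7a5, Slc38a2, Slc1a4, Slc1a5, Asns, Atf4 and the list members given as counted were added for their roles after their values were seen. Gene coordinates are from GENCODE M21 (GRCm38, the build mm10), matched by identifier, and promoters from RefSeq.

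Alternatives were DESeq2 1.42.0, library-size scaling, other filters, fits to the 2 groups compared, no fold minimum, limma 3.58.1 on log2 TPM with a pseudocount of 1 or of 0.1, a replicate block and leaving out each library. The mean correlation between deviations of libraries with equal numbers was 1e-04 (-0.0205 to 0.0222), so the numbers were not taken to pair samples. The tests were also run on simulated counts for day 3 against MEF. There 200 genes among 14968 were changed by a log2 fold change of 2. Of these, edgeR and DESeq2 each called 200 and limma 194, and each called 0 of the unchanged genes. Changes nearer the 2-fold minimum were not tested in this way. In the deposited data 14.6% of all genes were called higher and 14.5% lower at that step. Counts with so large a share of changed genes were not tested.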

Additional observations from a re-analysis of the deposited data

How the results depend on the processing

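Directions of all called changes of the 10 genes held under every alternative run, and at day 3 against MEF 2 were called higher in each and 5 to 7 lower. The fold minimum decided most of the rest. Without it, genes called higher numbered 9 at day 6 against day 3 (5 with it), 6 at day 9 against day 6 (1), and 7 in ESC against day 9 (4), and genes called lower numbered 3 in ESC against day 9 (0) and 5 in ESC against MEF (1). Of all genes, in either direction, 56.5% passed without it at day 6 against day 3 and 34.6% at day 9 against day 6. The share was 69.6% in ESC against day 9 and 76.6% in ESC against MEF. Phgdh, the 1 gene called lower in ESC than MEF, sits at that minimum: library-size scaling, limma on log2(TPM + 1) and limma on log2(TPM + 0.1) each called 0, at log2 fold changes of -0.68, -0.94 and -0.95. With each library left out in turn, the genes called lower in ESC than MEF numbered 0 to 1, 0 without ESC replicate 1. Those called higher numbered 4 to 5 at day 6 against day 3 and 3 to 4 in ESC against day 9. With the replicate block the counts called at day 3 against MEF were again 2 and 5, and the block changed no other count of called genes.

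Signs changed only for values that were not called at the 2-fold minimum. In ESC against MEF these include Psat1 (-0.07), Psph (-0.18) and Shmt2 (-0.32), with edgeR adjusted p of 0.04, 0.032 and 2.8e-06. The direction of these values depends on the scaling. For ESC against MEF, library-size scaling, which moves the median of all genes from 0.099 to 0.438, gave 0.27 for Psat1, 0.16 for Psph, 0.018 for Shmt2 and 0.289 for Mthfd1l. Limma gave 0.029 for Psat1 with either pseudocount, and 0.007 (TPM + 1) and 0.008 (TPM + 0.1) for Mthfd1l. For Psat1 at day 6 against day 3, library-size scaling gave 0.06 and limma 0.016 with either pseudocount. For Shmt1 at day 9 against day 6, limma gave -0.098 (TPM + 1) and -0.099 (TPM + 0.1). For Shmt2 at day 9 against day 6, DESeq2 gave 0.005, library-size scaling 0.014, the stricter filter 0.031, the fit to the 2 groups 0.01, and leaving out single libraries -0.026 to 0.016, with 0.001 without day 9 replicate 1. The ratio of Shmt1 to Shmt2 from coding transcripts alone, chosen after seeing the data, was 0.015, 0.2, 0.408, 0.366 and 0.2 from MEF to ESC, against 0.108, 1.35, 3.0, 2.99 and 1.16. Apart from the scaling and the transcripts counted, causes were not tested.

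Depth limits Tdh in MEFs, at 5 and 8 reads, and Gldc in MEFs and at day 3, at 14 to 24 reads. With 2 libraries per group the spread within a group is poorly known.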

Other observations

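Of 8 genes of purine synthesis, which uses glycine and folate-bound carbon, 2 were higher on day 3 than in MEFs, beside 14.6% of all genes: Paics, at 197.8 CPM in MEFs and 814.1 on day 3 (log2 fold change 2.04, edgeR adjusted p 4.4e-16), and Ppat, the first committed enzyme, at 17.8 and 61.6 CPM (1.79, edgeR adjusted p 8.4e-13). All 8 had a positive log2 fold change there, with a median of 0.77. In ESC against MEF 6 of the 8 were higher, beside 25.5% of all genes, led by Ppat (2.82) and Gart (2.50), with a median of 1.77. Pfas was higher on day 6 than on day 3. All 8 stayed under a 2-fold change from day 6 to day 9 (log2 fold changes of -0.234 to 0.188) and from day 9 to ESC (-0.964 to 0.857).

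In the methionine cycle and transsulfuration, a list of 13 genes of which 12 were tested, 3 were higher on day 3 than in MEFs, beside 14.6% of all genes. Cth, which makes cysteine from cystathionine, was at 30.2 CPM in MEFs, 160.7 on day 3, 231.7 on day 6 and 152.7 in ESCs (log2 fold change 2.41 on day 3, edgeR adjusted p 1e-15). Cbs, which condenses serine with homocysteine, came later: it was at 0.509 CPM in MEFs, 0.948 on day 3, 6.43 on day 6, 13.7 on day 9 and 27.3 in ESCs, with log2 fold changes of 2.76 on day 6 and 1.09 on day 9 (edgeR adjusted p 2.1e-09 and 1.6e-06). Methionine synthase, Mtr, was at 27.4 CPM in MEFs and 135.4 on day 9, and was lower in ESC than on day 9 (-1.18). Sardh, which breaks down sarcosine to glycine, fell at each of the first 3 steps, from 29.7 CPM in MEFs to 7.77, 2.49 and 0.994 CPM (-1.93, -1.64 and -1.33). In ESCs Sardh was at 4.48 CPM.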
